A study of Canis lupus familiaris with 24 samples.

Results

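The comparison described here sets the base dependent site of the injured lung against the same site of the control lung in dogs that were ventilated for 5 h. Its members are the 3 arrays titled as the injured left lung, base dependent, and the 3 arrays titled as the noninjured right lung, base dependent, out of 24 arrays in the series. Each dog gave 1 array of either kind, so the comparison is paired within 3 animals. It is described across the 19594 probe sets that were called Present on at least 2 of these 6 arrays. Base names the level in the lung, and dependent names the lower part under gravity.

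All 3 animals were mongrel dogs under pentobarbital anaesthesia with pancuronium as muscle relaxant, and a double-lumen tube ventilated the lungs separately at 25 breaths/min. The injured group is the left lung, which was washed with warmed saline at 20 ml/kg on 4 occasions and then ventilated at its earlier settings. The control group is the right lung of the same dogs, which was not lavaged and had PEEP (positive end-expiratory pressure) set to 5 cmH2O. Side, lavage and PEEP therefore differ together between the groups, and their effects cannot be told apart. Both lungs shared 1 animal's anaesthesia, blood supply and ventilation time, so neither group is an untouched lung. The series also holds arrays from the base nondependent and both apex sites of the same lungs, and a site in the middle of the base was not analysed here.

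Saline lavage removes surfactant, the film of lipids and proteins made by alveolar type 2 cells that keeps air spaces open. Without it, the dependent part of a lung is the part that most readily collapses and fills with fluid, and PEEP is used clinically to hold such regions open. Lung cells answer stretch, low oxygen and inflammation with known gene programmes, among them metal-binding and heat shock proteins, cytokines, and changes of matrix and blood vessel genes.

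The arrays carry human probes, so they match some dog transcripts poorly, and levels of different genes were not compared with each other. Values below are log2 of the deposited signal, listed for dogs 1, 2 and 3 in that order. Differences are injured minus control on the log2 scale, given as the mean of 3 dogs ± SE from limma, a linear model fitted across all probe sets. A gene is represented by its brightest tested probe set, which gave 11067 genes. The tissue gave clear signals for lung epithelium: SFTPC, the surfactant protein C gene, was called Present on all 6 arrays, as was AGER, a marker of alveolar type 1 cells. Because whole tissue was measured, fewer cells of a type and less RNA per cell cannot be told apart.

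The arrays of the injured lung called 65.5, 80.1 and 72.5% of probe sets Present, and those of the control lung 66.4, 73.8 and 82.0%. The injured array of dog 3 had a highest signal of 26350, while the other 5 of these arrays reached at most 17167. Both apex arrays of the same lung were also high, at 27749 and 22155. Values without dog 3 are given for some of the genes whose mean it dominates, not for all. The difference between the 3′ and 5′ probe sets of GAPDH, a sign of RNA quality, was 3.08, 1.73 and 1.55 (log2) on the injured arrays and 1.66, 1.55 and 1.72 on the control arrays, so it was largest on the injured array of dog 1. For ACTB it was -0.24, -1.06 and 0.19 on the injured arrays, against -1.49, -0.93 and -0.71 on the control arrays. Values with these measures as covariates are given for the lists and genes named as such below.

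No probe set passed the threshold of 0.05 after Benjamini-Hochberg adjustment in limma (0 of 19594, 0%), and the smallest adjusted p was 0.0751. At an unadjusted p under 0.05 there were 1205 probe sets (6.15% of those tested), of which 678 were higher (3.46%) and 527 lower (2.69%) in the injured lung. The 3 injured and 3 control arrays did not overlap for 1630 probe sets (8.32%), 951 of them higher (4.85%) and 679 lower (3.47%) in the injured lung. The differences described below are therefore values with their errors, not calls, and each named gene has a limma adjusted p over 0.05.

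Across all probe sets the differences in 1 dog were nearly uncorrelated with those in another. The correlation of the injured minus control differences across probe sets was 0.05 between dogs 1 and 2, -0.01 between dogs 1 and 3, and 0.11 between dogs 2 and 3. Probe sets are not independent replicates, so these values are a description. Each difference rests on 1 array per lung, so unlike responses and measurement noise cannot be told apart in them. The median SE of a difference was 0.36 (log2). The differences had a standard deviation across probe sets of 0.905 in dog 1, 0.695 in dog 2 and 0.775 in dog 3.

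**Figure D1:**
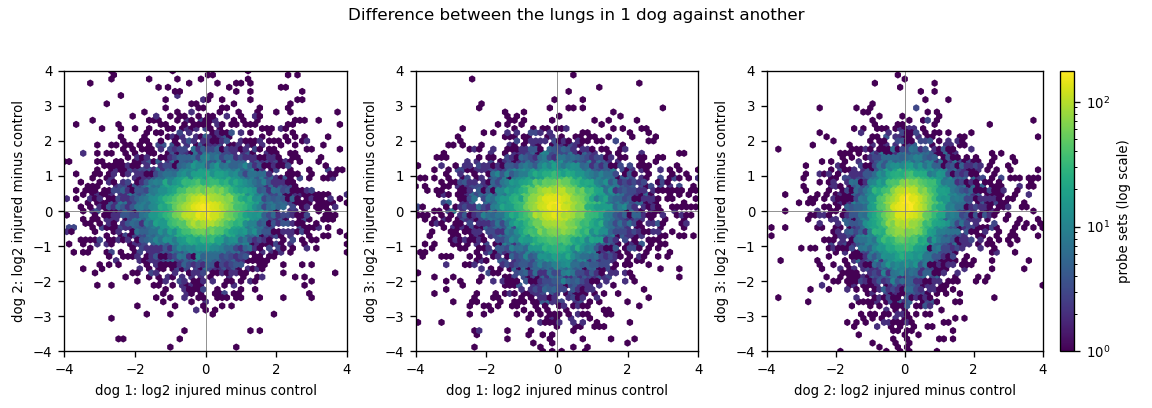
Difference between the injured and control lung at the base dependent site, per probe set, in 1 dog against another. Both axes are log2 differences, injured minus control, colour gives the number of probe sets on a log scale, and 124 probe sets beyond 4 in any dog lie outside the axes. The clouds are nearly round, with correlations of 0.05, -0.01 and 0.11.

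Metallothioneins, small proteins that bind zinc and copper and are induced by metals, glucocorticoids and oxidative stress, were higher in the injured lung as a family. MT2A had log2 signals of 13.28, 11.41 and 12.59 in the injured lung and 10.41, 9.62 and 11.82 in the control lung. Each dog was higher in its injured lung, although the injured value of dog 2 lay below the control value of dog 3, so the groups overlapped. The difference was 1.81 ± 0.44, or 3.50-fold (95% interval 0.89 to 2.72, unadjusted p = 0.000513, limma adjusted p = 0.516).

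MT1F was likewise higher in each dog with overlapping groups, at 11.87, 10.17 and 11.84 in the injured lung and 9.21, 9.28 and 10.55 in the control lung, with a difference of 1.61 ± 0.40. The other members stood at 1.32 for MT1X, 1.18 for MT1H, 1.08 for MT1G, 1.04 for MT4 and 0.83 for MT1E, whereas MT3, the form best known from brain, stood at -0.17. Of 8 tested family members, 7 had the same sign in 3 dogs and an unadjusted p under 0.05 with a higher signal in the injured lung, compared with 15.1% and 3.26% of all genes. The 7 at that p were 3 without dog 1, 4 without dog 2 and 4 without the replicate block. No member separated the groups without overlap, a state that 4.51% of all genes reached in this direction. The median difference of the family was 1.13, with 1.69 in dog 1, 1.03 in dog 2 and 0.64 in dog 3, against a median of 0.01 over all genes. Metallothionein genes are nearly identical in sequence, so these probe sets may read the same transcripts and are not separate evidence.

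Matrix genes were mixed. VCAN, the proteoglycan versican that binds hyaluronan, had signals of 9.10, 7.93 and 8.08 in the injured lung, against 7.42, 7.03 and 7.33 in the control lung. All 3 injured arrays lay above all 3 control arrays. Its difference was 1.11 ± 0.31 (limma adjusted p = 0.627), and 4 further probe sets stood between 0.67 and 0.93.

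HAS2, a hyaluronan synthase, had 8.64, 8.55 and 7.09 in the injured lung and 6.03, 5.30 and 7.89 in the control lung. Dogs 1 and 2 were far higher in the injured lung and dog 3 was lower, so the mean of 1.69 ± 0.66 hides opposite signs, and without dog 3 it was 2.92. COL15A1, a collagen of basement membrane zones, stood at 1.30 ± 0.57 with Present calls on 2 injured and 1 control array, and COL5A2, a fibrillar collagen, stood at 0.93.

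Of 38 tested genes of matrix remodelling, 24 were lower and 14 higher, with a median of -0.13 that was -0.00 with the RNA quality covariates. The inhibitor of metalloproteinases TIMP3 had 9.71, 9.56 and 8.34 in the injured lung and 11.27, 10.16 and 10.03 in the control lung, a difference of -1.28 ± 0.76 with no overlap of the groups, and its further probe sets ranged from -1.45 to -0.29. FN1, which encodes fibronectin, stood at -1.02 ± 0.45, mostly through dog 3, and at -0.24 without that dog. Its 5 further probe sets lay between -0.44 and 0.13.

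Genes of RNA binding and splicing were mixed as well. HNRNPAB, a protein that packages nuclear RNA, lay between 8.82 and 9.23 in the injured lung of the 3 dogs and was 7.50, 7.53 and 7.72 in the control lung. The groups lay far apart, and the difference was 1.43 ± 0.40. G3BP1, a core protein of stress granules, had 9.55, 10.51 and 9.82 in the injured lung, against 8.08, 9.07 and 8.43 in the control lung. Its difference was 1.44 ± 0.41, and its other probe set, Present on 2 injured and 0 control arrays, stood at 0.54.

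PWP1, which takes part in ribosome biogenesis, stood at 1.62 ± 0.43, and its further probe sets at 0.96 and 0.95. The splicing proteins U2AF1 and SNRPE each stood at 0.73, and both separated the groups. PRMT1, an arginine methyltransferase that modifies many RNA-binding proteins, stood at 0.93 ± 0.38 with no overlap. HNRNPA1 went the other way at -1.21 ± 0.41, with 8.35, 8.04 and 6.19 in the injured lung and 8.72, 8.98 and 8.50 in the control lung, while its further probe sets stood at 0.50 and 0.41. Without dog 3 it was -0.66. Over 52 tested splicing and hnRNP genes the median was 0.14, of which dog 1 gave 0.51, dog 2 0.01 and dog 3 -0.03. It was -0.05 without dog 1, the dog with the largest GAPDH 3′ to 5′ difference on its injured array, and 0.03 with the RNA quality covariates.

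The cytosolic chaperonin CCT, a ring of 8 kinds of subunit that folds actin and tubulin, was represented by 8 tested genes. All 8 had a mean difference above 0 (51.5% of all genes did), with a median of 0.26. CCT7, at 0.04, was below 0 under cyclic loess scaling, at -0.01. Under the alternatives run, between 0 and 3 of the genes were below 0, with 3 for the RNA quality covariates and 3 without the control array of dog 2. CCT8 had 9.19, 7.91 and 7.40 in the injured lung and 6.62, 6.03 and 6.95 in the control lung, but was called Present on only 1 array of either group. Its difference was 1.63 ± 0.46, and its other probe set, Present on all 6 arrays, stood at 0.61. CCT5 stood at 0.68 ± 0.27 with no overlap. With the RNA quality measures as covariates the median of the subunits was 0.07.

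Heat shock and unfolded protein genes were mixed, with 7 of 32 higher and 2 of 32 lower at an unadjusted p under 0.05, against 3.26% and 2.93% of all genes. The count of 7 was between 1 and 7 under the alternatives run, with 1 without dog 2. The mitochondrial chaperonin HSPD1 had 10.25, 10.49 and 10.19 in the injured lung, above its control values of 9.22, 9.55 and 9.89, a difference of 0.76 ± 0.31. DNAJC3, an endoplasmic reticulum co-chaperone that also inhibits kinases slowing translation, stood at 2.30 ± 0.57, with control signals of 1.43, 5.04 and 5.38, and at 1.27 without dog 1, whose control signal was very low. HERPUD1, a protein of endoplasmic reticulum quality control, was lower at -0.77 ± 0.35. The list's median of 0.12 was -0.03 with the RNA quality covariates.

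Inflammatory genes were mixed. CXCL8, the neutrophil chemokine interleukin 8, had 6.83, 6.05 and 6.38 in the injured lung and 5.61, 5.46 and 5.89 in the control lung. The injured arrays lay above the control arrays, but the difference of 0.77 ± 0.53 has a 95% interval of -0.34 to 1.88, and the other probe set stood at -0.07. IL1B (0.02), IL6 (-0.18) and TNF (-0.45), the early cytokines of acute lung injury, stood near or below 0, and their 95% intervals ended at 0.51, 0.31 and 0.09.

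IL10, an anti-inflammatory cytokine, had 6.74, 7.45 and 7.43 in the injured lung and 5.76, 6.24 and 6.98 in the control lung, a difference of 0.88 ± 0.29. NAMPT, which makes a precursor of NAD and can act outside cells, had 11.25, 8.57 and 8.82 in the injured lung and 7.39, 7.37 and 9.46 in the control lung. Dog 1 made most of its mean of 1.47 ± 0.58, which was 0.28 without that dog, and dog 3 was lower in the injured lung. The other NAMPT probe set also stood at 0.28. CXCL3, a further neutrophil chemokine, was called Present on 2 injured and 0 control arrays. Its log2 differences were 1.12, 2.40 and 0.02 in dogs 1, 2 and 3, so dog 3 showed almost none. Its mean log2 difference was 1.18, or 2.27-fold, and 0.57 without dog 2.

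Of 27 tested cytokines and chemokines, 18 were higher (51.5% of all genes were), and the median was 0.18. For genes of NF-kB feedback and endothelial adhesion, which are switched on by tumour necrosis factor and interleukin 1, 17 of 21 were higher with a median of 0.27, although none had an unadjusted p under 0.05, and without dog 2 the number lower was 10 in place of 4. Their dog medians were 0.28, 0.21 and 0.18. TNFAIP6, a hyaluronan-binding protein induced by those cytokines, stood at 0.76 ± 0.37, and the adhesion molecule SELE at 0.57 ± 0.49. Among acute phase genes ORM1 stood at 0.94, FGA at 0.80, FGG at 0.69 and the lipopolysaccharide-binding protein gene LBP at -0.67, each with the same sign in 3 dogs.

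Early response genes split. TRIB1, a pseudokinase that directs protein degradation, had 10.41, 10.40 and 10.61 in the injured lung and 8.72, 8.96 and 9.79 in the control lung. The injured values lay above every control value, by 1.31 ± 0.36 on average. KLF4, a transcription factor of endothelium and epithelium, had 8.59, 8.62 and 9.55 in the injured lung, against 9.51, 10.00 and 10.21 in the control lung. It was lower in each dog with a slight overlap of the groups, at -0.99 ± 0.29, and its other probe set stood at -0.92.

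CCN2, a matricellular protein induced by stretch and TGF-beta, had 7.97, 7.04 and 6.45 in the injured lung and 9.58, 8.44 and 8.93 in the control lung. Every injured array lay below every control array, with a difference of -1.83 ± 0.77, or 3.55-fold lower. FOS (-1.04 ± 0.64) was lower without overlap while its relative FOSB (1.23 ± 0.57) was higher, and EGR1 stood at 0.10 ± 0.45 with mixed signs. MYC had 10.99, 8.58 and 7.04 in the injured lung and 9.07, 7.05 and 8.87 in the control lung, higher in dogs 1 and 2 and lower in dog 3.

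Clotting and vessel genes also split by gene. THBS1, the matricellular and platelet protein thrombospondin 1, had 10.90, 11.59 and 11.94 in the injured lung and 9.04, 9.36 and 11.20 in the control lung. Dog 3 had the highest level in both lungs and the smallest difference, and the mean was 1.61 ± 0.61. A further probe set of THBS1 had 11.08, 11.02 and 11.24 in the injured lung and at most 10.79 in the control lung, with no overlap and a difference of 1.47. The remaining THBS1 probe sets stood at -0.13, Present on all 6 arrays, and -0.24, Present on 1 array of either group. With the RNA quality covariates the brightest probe set stood at 0.90.

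PLAU, the urokinase gene, stood at 0.61 ± 0.28 with no overlap, and its other probe set at 0.06. NOS3, the endothelial nitric oxide synthase, had 7.52, 6.70 and 6.68 in the injured lung, above its control values of 5.83, 6.16 and 5.92, at 0.99 ± 0.30. RAMP2, which forms the adrenomedullin receptor in endothelium, had 8.88, 8.12 and 8.42 in the injured lung, below its control values of 9.61, 9.69 and 9.32, at -1.07 ± 0.41. NOS3 and RAMP2 are both endothelial genes, and the 21 tested endothelial markers had a median of -0.17 (-0.00 with the RNA quality covariates) with 14 lower, so the 2 lie at opposite ends of that list.

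Glucose metabolism genes included SLC2A1, the glucose transporter GLUT1 and a target of hypoxia-inducible factor. It had 8.14, 7.90 and 8.26 in the injured lung and 7.55, 6.83 and 7.36 in the control lung. All injured arrays were above all control arrays, and the difference was 0.85 ± 0.30. PGAM1, a glycolytic enzyme, stood at 0.81 ± 0.30, LDHA, lactate dehydrogenase A, at 0.76 ± 0.38, and PFKFB4, a regulator of glycolysis, at 1.30 ± 0.60. Across 28 tested genes of hypoxia and glycolysis the median was 0.14, with 3 higher and 0 lower at an unadjusted p under 0.05, compared with 3.26% and 2.93% of all genes. With the RNA quality covariates 1 was higher.

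Among the genes with the smallest p, UBA3, the catalytic subunit of the enzyme that activates NEDD8, had 6.70, 5.96 and 6.54 in the injured lung and 5.07, 5.24 and 4.52 in the control lung. The groups did not overlap, and the difference was 1.46 ± 0.32. In the NEDD8 and cullin ligase list 9 of 23 genes were higher and 14 lower (48.5% of all genes were lower), among the lower ones RBX1, the RING subunit of these ligases, at -1.15 ± 0.44. DAPK2, a calmodulin-dependent kinase, had 7.46, 7.41 and 7.78 in the injured lung, against 6.09, 6.17 and 6.61 in the control lung, a difference of 1.26 ± 0.29, and its other probe set, Present on 2 injured and 0 control arrays, stood at 0.70.

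PPRC1, a coactivator related to PGC-1 that promotes mitochondrial biogenesis, had 6.27, 5.94 and 6.58 in the injured lung and 3.37, 3.90 and 5.66 in the control lung, at 1.95 ± 0.44. FPGT, an enzyme of fucose salvage, stood at 1.27 ± 0.31. RPRD2, a protein that binds RNA polymerase II, was called Present on 2 injured and 0 control arrays. It had 8.89, 9.65 and 7.24 in the injured lung and 3.86, 4.56 and 6.17 in the control lung. On average it was 13.3-fold higher, with log2 differences of 5.03, 5.09 and 1.065 in dogs 1, 2 and 3. Mitochondrial genes as a group stayed near 0: the 42 tested genes of oxidative phosphorylation had a median of 0.08 and none had an unadjusted p under 0.05.

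**Figure D2:**
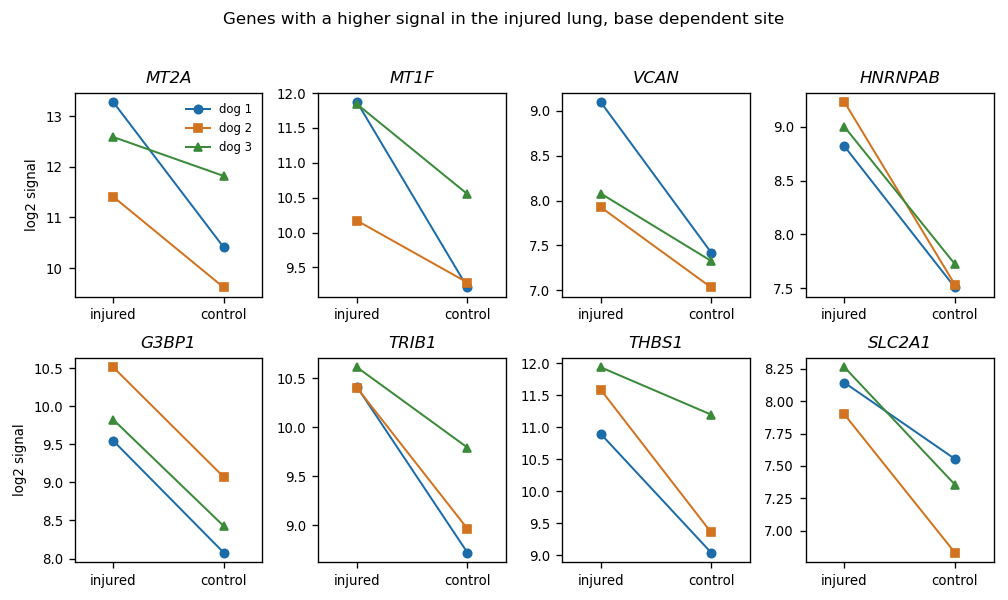
Log2 signals of 8 genes that were higher in the injured lung, with injured on the left and control on the right of each panel and a line per dog. HNRNPAB, G3BP1, TRIB1, VCAN and SLC2A1 separate the groups, while MT2A, MT1F and THBS1 are higher in each dog with overlapping groups.

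The 12 largest differences towards the injured lung, among genes with an unadjusted p under 0.05, the same sign in 3 dogs and a Present call on each injured array, came from dim probe sets. They were ZCCHC10, CEP135, IBTK, SEC24D, RRP15, ZNF623, UGT2A3, LPA, CT62, GNG13, PPRC1 and TMEM106B, with differences between 1.92 and 2.96. Their linear signals had a median of 51.1 on the injured arrays and 11.8 on the control arrays, against a median of 110 over all tested probe sets, and 11 of 36 control calls were Present. GNG13, LPA and ZNF623 were called Present on no control array. With control signals below the lowest Present signal of their array raised to it, they were on average 4.25, 3.28 and 3.68-fold higher. Near background a small change of signal makes a large log2 difference, and adding 50 to the signals lowers the difference of PPRC1 to 0.80.

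The 12 largest differences on the lower side were chosen by the same rule, with a Present call on each control array. These came from brighter probe sets. They were SEC14L3, LTBP3, FKBP8, TECR, BMP4, GRIA3, CCN2, IRX5, CLIC4, SRGAP3, HOXB6 and NR1D2, between -2.55 and -1.56. Their linear signals had a median of 87.5 on the injured arrays and 397.5 on the control arrays, and 22 of 36 injured calls were Present. All 36 control calls were Present by that rule. FKBP8, a relative of the FK506-binding immunophilins, was Present on no injured array and on average 5.65-fold lower. Its other probe set, Present on all 6 arrays, stood at -0.07. SRGAP3 had 6.76, 8.36 and 8.32 in the injured lung and 9.66, 10.07 and 8.91 in the control lung, at -1.74 ± 0.42, and its other probe set stood at 0.08. CLIC4, an intracellular chloride channel protein, stood at -1.75 and, without dog 3, at -0.71, and its further probe sets at -0.15 and 0.13.

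SEC14L3, a lipid-binding protein known from ciliated airway cells of rodents and kept in the alveolar type 1 list here, gave the most negative of these differences. It had 8.30, 6.83 and 4.37 in the injured lung and 9.40, 8.82 and 8.93 in the control lung. The injured arrays all lay below the control arrays, most of all in dog 3. The difference was -2.55 ± 0.67, or 5.86-fold lower (unadjusted p = 0.00104, limma adjusted p = 0.516), and it was -1.54 without dog 3.

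AGER, the receptor for advanced glycation end products and the classic type 1 cell marker, had 10.09, 10.09 and 8.98 in the injured lung, against 11.35, 11.23 and 10.60 in the control lung. The groups did not overlap, but the spread pooled over all sites was large, and the difference of -1.34 ± 0.91 has a 95% interval of -3.23 to 0.55. With the RNA quality covariates it was -0.29. Over 11 type 1 genes 5 were lower and 6 higher, with a median of 0.02. Besides SEC14L3 and AGER, CLIC3 stood at -0.44, EMP2 at -0.33 and AKAP5 at -0.28. CLIC3 was Present on 1 array of either group and was lower only in dog 3, at -2.22. Besides PDPN, GPRC5A (0.37), HOPX (0.35), CLIC5 (0.06) and the caveolin genes CAV1 (0.04) and CAV2 (0.02) stood above 0. GPRC5A was higher only in dog 3, at 1.38. PDPN, a membrane glycoprotein, had differences of 3.01, 0.48 and -0.21 in dogs 1, 2 and 3 and was Present on 1 injured and 3 control arrays.

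Type 2 cell genes differed in both directions. SFTPC had 10.47, 11.38 and 10.92 in the injured lung and 11.32, 11.71 and 11.22 in the control lung, lower in each dog with overlapping groups, at -0.49 ± 0.33 with an interval of -1.17 to 0.19. Its further probe sets stood at -0.79, -0.89, -0.69 and 0.59. SFTPD, a collectin of surfactant, stood at -0.45 ± 0.48, and 0.16 with the RNA quality covariates. SFTPB stood at 0.31 ± 0.32, with differences of -0.16, 0.24 and 0.87 in dogs 1, 2 and 3. Its further probe sets ranged from -0.86 to 0.50. Among 13 type 2 genes, the median was -0.03, and none had an unadjusted p under 0.05.

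Bone morphogenetic proteins (BMPs) act on vessel and airway cells through SMAD proteins and their ID target genes. Most transcripts of this list, which holds both activators and inhibitors of the pathway, had lower signals in the injured lung. Of 16 tested genes, 14 were lower (48.5% of all genes were), 9 had the same negative sign in 3 dogs (12.2% of all genes) and 4 had an unadjusted p under 0.05 (2.93%), a count that lay between 1 and 5 under the alternatives run, with 1 without the replicate block and 2 with the RNA quality covariates. The median was -0.49, and the dogs gave -0.55, -0.43 and -0.41. Under the alternatives run, the list's median stayed between -0.67 and -0.33.

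The ligand gene BMP4 had 8.56, 7.24 and 4.13 in the injured lung and 8.95, 9.11 and 8.17 in the control lung. Dog 3 was lowest by far, and the difference of -2.10 ± 0.91 was -1.13 without that dog. The ligands BMP6, BMP2 and BMP5 stood at -0.47, -0.45 and -0.23. The receptor genes were uneven, with the endothelial receptor ACVRL1 at -0.71, its partner ENG at -0.51 and BMPR2 at 0.01. ACVRL1 differed by -2.56, 0.28 and 0.16 in dogs 1, 2 and 3, so dog 1 alone made its mean negative. ENG differed by -0.58, 0.14 and -1.08.

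Among the transducers, SMAD1 stood at -0.51 and SMAD5 at -0.41. The inhibitory SMAD7 had 5.90, 7.08 and 6.62 in the injured lung, below its control values of 7.57, 7.95 and 7.19, at -1.04 ± 0.34. The other inhibitor, SMAD6, stood at -0.71 ± 0.30. SMAD5 and SMAD7 were the 2 members whose groups did not overlap, where 3.69% of all genes did so in this direction.

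The target ID3, an inhibitor of basic helix-loop-helix factors, had 8.21, 7.50 and 7.11 in the injured lung and 9.55, 9.58 and 7.66 in the control lung. It was lower in each dog, by most in dog 2, with a mean of -1.33 ± 0.42, and it was called Present on 1 injured and 3 control arrays. ID1, ID4 and ID2 stood at -0.73, -0.48 and -0.32. GREM1, a secreted BMP antagonist, was above 0 at 0.22.

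Genes of smooth muscle and fibroblasts were lower in the same samples, with 17 of 22 below 0 (48.5% of all genes), 4 at an unadjusted p under 0.05 (2.93%) and a median of -0.38. The count of 4 lay between 0 and 7 under the alternatives run, with 0 without the control array of dog 3, 1 without the replicate block, and 1 with the RNA quality covariates, where the median was -0.23. Their mean log2 level was 8.31, 8.29 and 8.02 on the injured arrays and 8.62, 8.46 and 8.44 on the control arrays, so the injured arrays lay below the control arrays. MYLK, the myosin light chain kinase, had 6.01, 6.21 and 7.05 in the injured lung, against 7.29, 7.33 and 7.51 in the control lung, at -0.96 ± 0.44. TPM2, a tropomyosin of muscle, stood at -1.39 ± 0.54, and at -0.21 without dog 3. HSPB2, a small heat shock protein of muscle, stood at -1.23 and was called Present on 1 injured and 3 control arrays, and ACTG2, smooth muscle gamma actin, stood at -0.44. Of the other contractile genes, TAGLN (-0.76), TPM1 (-0.60), SMTN (-0.45), MYH11 (-0.15) and CALD1 (-0.07) were below 0. DES (0.33), CNN1 (0.16), ACTA2 (0.09) and LMOD1 (0.02) were above, DES in each dog. Whether a different share of vessel and airway wall in the pieces takes part in the lower BMP and matrix genes was not tested.

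**Figure D3:**
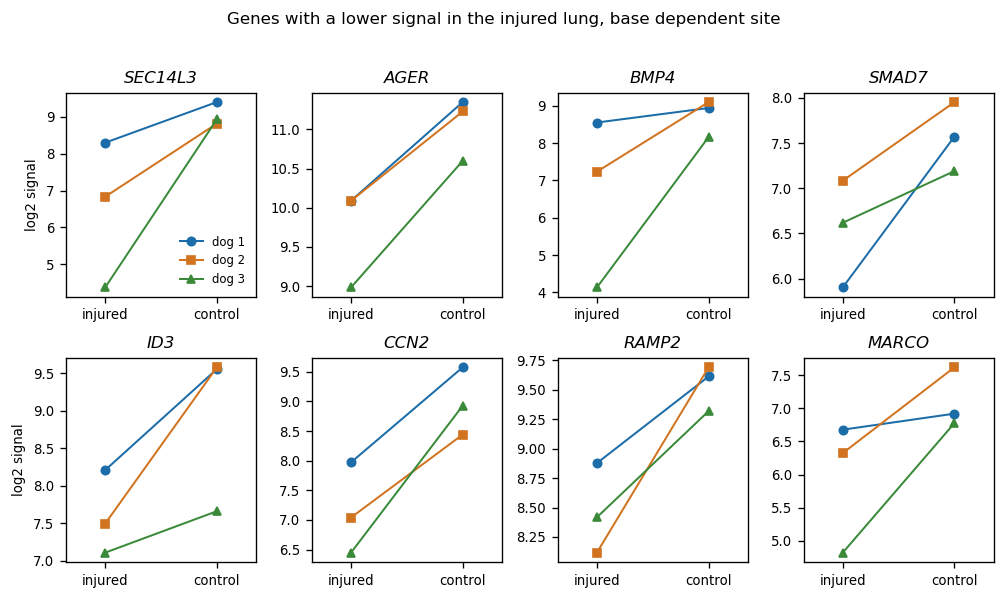
Log2 signals of 8 genes that were lower in the injured lung, with injured on the left and control on the right of each panel and a line per dog. SEC14L3, AGER, SMAD7, CCN2, RAMP2 and MARCO separate the groups, and dog 3 has the lowest injured value of SEC14L3 and BMP4.

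Markers of blood and immune cells had medians near 0 or slightly above it. Of 14 neutrophil genes, 7 were higher and 7 lower with a median of -0.02, and the mean log2 level lay between 6.52 and 7.34 on the injured arrays and between 6.79 and 7.18 on the control arrays. The granule protease PRTN3 was the only one with an unadjusted p under 0.05, at 0.89 ± 0.36, while MPO, the myeloperoxidase gene, stood at 0.05 and S100A9 at -0.48.

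Among macrophage genes, MARCO, a scavenger receptor of alveolar macrophages, had 6.68, 6.32 and 4.82 in the injured lung, below its control values of 6.92, 7.62 and 6.78. It was lower by 1.16 on the log2 scale (-1.16 ± 0.35) and was called Present on 1 injured and 3 control arrays. Of 17 macrophage genes 7 were lower and 10 higher, with a median of 0.25. C1QA (-0.44, with no overlap), ITGAM (-0.34) and CD74 (-0.27) were lower in each dog as well. The difference was only -0.02 for ITGAM in dog 2 and -0.01 for CD74 in dog 3. C1QB (0.72), FCGR1A (0.69, with no overlap), FCGR2A (0.54), MRC1 (0.33) and CD14 (0.25) were higher in each dog, while CD163 stood at 0.01. C1QB was called Present on 3 injured and 0 control arrays. The beta globin gene HBB, a sign of blood in the tissue, had 13.96, 13.10 and 11.53 in the injured lung and differed from the control lung by -0.01, -0.60 and -1.46 in dogs 1, 2 and 3, so it was lowest in the injured lung of dog 3.

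Genes of T and NK cells had a median of 0.02, with GZMK, a granzyme, at -0.84 ± 0.37 and CD28, a T cell costimulator, at 1.05 ± 0.41. GZMK differed by -2.1, -0.01 and -0.41 in dogs 1, 2 and 3, so dog 1 made most of its mean. That CD28 probe set was Present on 1 array of either group, and the others stood at 0.25 and -0.10. The cell cycle marker MKI67 was lower at -0.69 ± 0.28, without overlap, but 1 of its 3 further probe sets stood at 0.42. In the alveolar fluid clearance list, ATP1B3, a subunit of the sodium pump, stood at 0.62 ± 0.22, and AQP3, a water channel, at -0.75 ± 0.27, with its further probe sets, Present on all 6 arrays, at 0.15 and -0.01. The median of that list was -0.03.

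**Figure D4:**
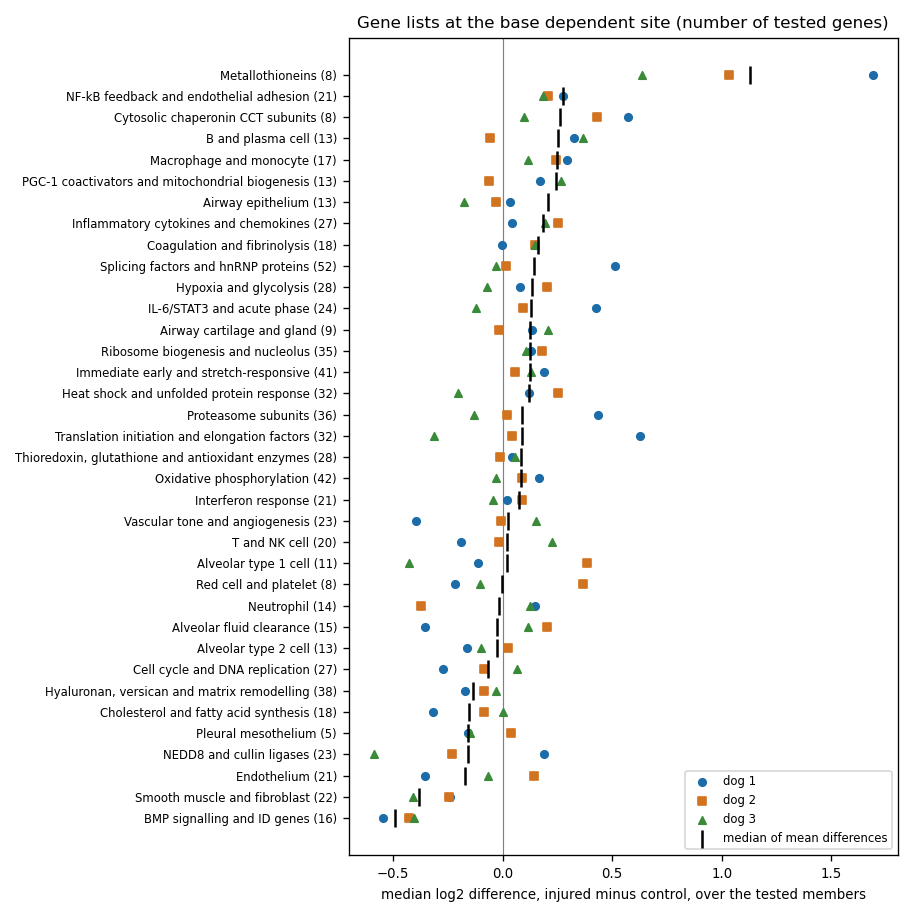
Median log2 difference, injured minus control, over the tested genes of each list, per dog (points) and for the mean of 3 dogs (black bars), sorted by the bars. Metallothioneins (median 1.13) lie highest and BMP signalling and ID genes (-0.49) lowest, and both have 1 sign in the 3 dogs.

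The same lungs were compared at the other sites with the same model, and only differences between sites that were themselves tested bear on the base dependent site. For the injury difference at the base dependent site minus that at the base nondependent site, 0 of 19594 probe sets passed in limma (0%), with a smallest adjusted p of 0.982 and 934 at an unadjusted p under 0.05 (4.77%). Against the apex dependent site 0 passed as well (0%), with a smallest adjusted p of 0.978 and 812 at an unadjusted p under 0.05 (4.14%). Of the 934, 588 were higher at the base dependent site and 346 lower, and quantile scaling gave 374 and 370. Of the 812, 352 were higher and 460 lower, and quantile scaling gave 426 and 371.

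Several genes had larger differences at the base nondependent site. MT2A stood at 1.81 at the base dependent site and 3.12 at the base nondependent site, HAS2 at 1.69 and 4.11, and THBS1 at 1.61 and 2.35. MYC (0.54 and 3.27), TXN, the redox protein thioredoxin (0.13 and 2.21), and CCT7 (0.04 and 2.15) were near 0 at the base dependent site. For CCT7 the difference between the sites was -2.11 ± 0.48 (unadjusted p = 0.000272, limma adjusted p = 0.982). The metallothionein median was 1.13 at the base dependent site, 2.16 at the base nondependent, 0.21 at the apex dependent and 0.43 at the apex nondependent site.

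Other genes were alike at the 2 dependent sites. CCN2 stood at -1.83 at the base dependent and -2.09 at the apex dependent site, against 0.02 at the base nondependent site. ID3 stood at -1.33 and -1.30 at the dependent sites and 0.03 at the base nondependent site. The BMP list had medians of -0.49 at the base dependent, -0.69 at the apex dependent, -0.23 at the base nondependent and -0.21 at the apex nondependent site. These patterns are values, and no difference between sites passed.

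For the following genes no difference between sites passed either. DAPK2 was 1.26 there and between -0.16 and -0.04 at the other sites. IMPA2, an inositol monophosphatase, was called Present on 2 injured and 0 control arrays and was on average 3.88-fold higher at the base dependent site (limma adjusted p of the difference from the base nondependent site = 0.982). NRIP1, a nuclear receptor corepressor, stood at 1.09 at the base dependent and -1.60 at the apex dependent site, a difference of 2.69 ± 0.54 (limma adjusted p = 0.978). ZFP36L1, an RNA-binding protein that promotes mRNA decay, stood at 1.09 and -0.76 at these sites, and its further probe sets at 0.34 and 0.09 at the base dependent site.

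**Figure D5:**
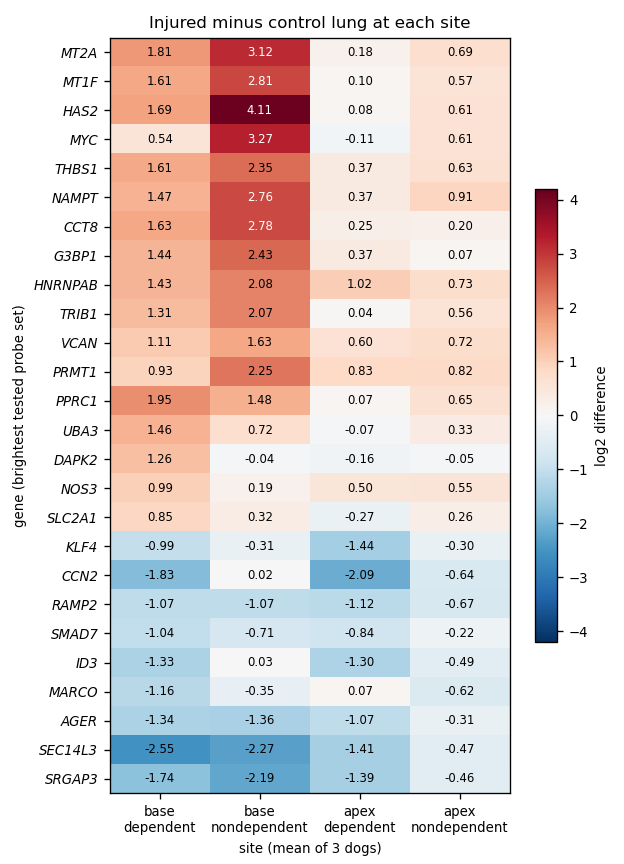
Injured minus control log2 difference (mean of 3 dogs) of 26 genes at the base dependent, base nondependent, apex dependent and apex nondependent sites. MT2A, HAS2 and MYC have larger values at the base nondependent site, and CCN2 and ID3 are negative at both dependent sites and near 0 at the base nondependent site.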

How the data were processed

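Dog lung RNA was measured on part A of the human Affymetrix HG-U133 array set. Per the file headers, the authors deposited for each array a signal, which is an intensity on a linear scale, and a detection call. No source used here gives the software or its settings. The trimmed mean of the deposited intensity was 149.94 or 149.95 on each array, and the series table and array files differed by 0. Of 22283 probe sets, 68 controls and 11 with no call were left out. Those Present on at least 2 of the 6 base dependent arrays were tested, and signals were put on the log2 scale with a floor of 0.1.

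limma 3.58.1 in R 4.3.3 was fitted to all 24 arrays with 8 groups and a block for dog, with trended moderation, and p-values were adjusted by Benjamini-Hochberg over 19594 probe sets at 0.05. Per the labels, both lungs of a pair belong to 1 animal, hence the block. The spread is pooled over all sites with 14 residual degrees of freedom, so pieces of a lung count as separate units. Deviations from the group means correlated at 0.227, 0.184 and 0.240 within the dogs' base dependent pairs, against a median of -0.123 between dogs. The deviations of the 3 dogs in a group sum to 0, so the value between dogs is pushed below 0 and is not a separate baseline. On simulated data with 200 changed probe sets, the test recovered 11.5% at a log2 change of 1, 78.5% at 2 and 90.0% at 3. The number of arrays limits the precision.

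Gene names came from the platform annotation: 16891 tested probe sets had 1 symbol, 909 several and 1794 none. Of 11067 symbols, 9907 (89.52%) were in the dog RefSeq table of UU_Cfam_GSD_1.0. The rule for naming genes took the 12 largest differences in each direction, the 5 smallest p, up to 4 members of each list with the same sign in 3 dogs (otherwise the 2 smallest p), up to 5 genes for each test between sites, and a fixed set. Further list members were chosen after their values were seen. Members, lists and the fixed set were chosen with earlier results of these data known, so list counts are a description. Alternatives covered the filter, scaling, offset, trend, weights, block, RNA quality covariates and left-out arrays.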

Additional observations from a re-analysis of the deposited data

How the results depend on the processing

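The count of 0 probe sets past the adjusted threshold for injured minus control held with only the 6 base dependent arrays, Present on at least 6 of 24 arrays, quantile or cyclic loess scaling, an offset of 50, RNA quality covariates, and without the 3 injured-lung arrays of dog 3 with high maxima. It was 1 with Present on at least 4 of 6 arrays, 1 with no intensity trend, 2 with array weights and 1 with no filter on detection. That last one is ESR1, Present on none of the 6 arrays. The others are a probe set without a symbol, with injured signals of 5.88, 5.60 and 5.28 and control signals of 7.26, 7.08 and 7.24 (difference -1.60), and SPTAN1 (-3.42 with weights). These genes were named after their values were seen. Leaving out 1 dog gave 0 to 3 calls. Without dog 3 they were MT2A (2.33), a THBS1 probe set (1.98) and RPRD2 (5.06). Leaving out 1 array, an alternative chosen after seeing the data, gave 0 to 2, and the 2, without the control array of dog 3, were RPRD2 and GSC2. The cause was not tested.

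Without the replicate block, 0 passed for injured minus control and for both tests between sites, and the counts at an unadjusted p under 0.05 were 689, 511 and 424 in place of 1205, 934 and 812. Leaving out 1 dog gave 914 to 1292, 516 to 1005 and 615 to 985 of these, the 516 without dog 2. Leaving out 1 array gave 905 to 1313 for injured minus control. Of 172 named results, at most 6 changed sign under an alternative, with the RNA quality covariates, among them IGHM (-1.08 against 0.05). Many were named partly for having the same sign in every dog, so leaving out a whole dog could not reverse them. Changing only the filter, block or trend does not alter a difference. Sign counts under those settings are therefore no measure of stability. With Present on at least 4 of 6 arrays, only 149 of the 172 were covered. Signals near background limit the dim genes: an offset of 50 moved 32 named values by more than their spread.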

Other observations

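Of 13 airway epithelium genes, none had an unadjusted p under 0.05. MUC5B, a secreted airway mucin, had 6.15, 6.25 and 5.42 in the injured lung and 7.14, 6.66 and 6.08 in the control lung, lower in each dog, at -0.68 ± 0.38. KRT18, a keratin of simple epithelium, had 8.74, 9.79 and 8.60 in the injured lung and 8.13, 8.84 and 8.28 in the control lung, higher in each dog, at 0.63 ± 0.31. The antioxidant enzymes GSTA1 (0.61 ± 0.24) and GSTP1 (-0.48 ± 0.19), both glutathione transferases, stood on opposite sides of 0, but the other GSTA1 probe set stood at -0.18. IRX5, a homeobox transcription factor, had 6.41, 8.96 and 7.53 in the injured lung, against 9.12, 10.51 and 8.56 in the control lung.

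The remaining lists had medians between -0.16 and 0.25, against 0.01 over all genes. They were 0.08 for thioredoxin, glutathione and antioxidant enzymes, 0.12 for immediate early genes, 0.12 for ribosome biogenesis, 0.09 for translation factors, 0.09 for proteasome subunits, 0.24 for mitochondrial biogenesis, 0.16 for coagulation, 0.02 for vascular tone and 0.07 for the interferon response. Cholesterol and fatty acid synthesis stood at -0.16, the cell cycle at -0.07 and the IL-6 and acute phase list at 0.13. Marker lists stood at 0.25 for B and plasma cells, 0.21 for airway epithelium, 0.13 for airway cartilage and gland, and -0.16 for pleural mesothelium, with red cells and platelets at -0.00. The NEDD8 and cullin ligase median of -0.16 was 0.05 without dog 3, and the translation factor median was -0.12 without dog 1.

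Of the genes with the smallest p for the difference between sites, FNDC4 stood at 0.76 at the base dependent and -1.26 at the base nondependent site, ABCA1, a cholesterol exporter, at 0.93 and -0.55, and RNF113A at -0.42 and 1.63. PAX7 stood at 1.98 at the apex dependent site, and at the base dependent site its mean was 7.10 in the injured lung and 8.11 in the control lung, with 2 Present calls in the injured lung and 0 in the control lung. TBX21, a transcription factor of T and NK cells, stood at -0.54 and 1.04 at those sites, and FUBP3 at 0.68 and -1.97.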
